A study of Homo sapiens with 6 samples.

Results

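The Wnt ligands, their frizzled and LRP receptors, the secreted DKK and SFRP inhibitors and the core intracellular members of the pathway were compared between wild strain TPC-1 cells and *RRM2*-OE-TPC-1 cells. The genes were taken by name from the deposited FPKM table. They are the protein-coding genes whose symbols begin with WNT, FZD, DKK or SFRP followed by a digit, together with *LRP5*, *LRP6*, *AXIN1*, *AXIN2*, *CTNNB1*, *TCF7*, *TCF7L1*, *TCF7L2*, *LEF1*, *LGR4*, *LGR5*, *RNF43* and *ZNRF3*. This gave 50 of 58735 genes, and the rule uses names only, no measured value. Of the 50, 29 had 10 or more reads and 0.5 FPKM or more in 3 or more libraries and were tested, and 21 did not.

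TPC-1 cells are an established line from a human papillary thyroid carcinoma, and 3 libraries of the wild strain, neither infected nor selected, were set against 3 of *RRM2*-OE-TPC-1. The latter is TPC-1 infected with a lentivirus (vector LV18) in which a CMV promoter drives full-length *RRM2*, a subunit of ribonucleotide reductase, followed by puromycin selection. No empty-vector library was analysed here, so *RRM2*, viral infection and puromycin cannot be told apart. The paper describes an *RRM2* overexpression line assayed in triplicate. The p-values below therefore measure spread between libraries of a line, not between lines made independently. Any other difference that arose between the lines cannot be told apart either. In the labels the genotype of *RRM2*-OE-TPC-1 replicates 2 and 3 reads RRM3 and RRM4, whereas their titles give *RRM2*. *RRM2* itself was at 9.17, 9.05 and 8.52 FPKM in TPC-1 and at 50.4, 47.5 and 47.2 FPKM in *RRM2*-OE-TPC-1 (log2 fold change 2.43, SE 0.0442, adjusted p = 1.11e-08 from limma), so all 3 overexpression libraries were high, the ones with other genotype labels included. Viral and endogenous copies are counted together.

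Wnt proteins are secreted lipid-modified ligands that bind a frizzled receptor together with the co-receptor LRP5 or LRP6. In the canonical branch this stops the AXIN-based destruction complex from marking β-catenin for degradation, and β-catenin then acts with TCF/LEF factors on target genes. Other ligands, WNT5A among them, act largely through branches that do not need β-catenin, and secreted DKK and SFRP proteins limit signaling outside the cell.

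FPKM is the number of fragments scaled to gene length and sequencing depth, so levels can be compared between genes, though only roughly. The length used is that of all annotated exons of a gene, whichever of them are in use. The libraries held 14317091 to 17084067 reads on genes, and mitochondrial genes took 4.29% to 5.89% of them. The thyroid follicular markers *TG*, *TSHR*, *SLC5A5*, *NKX2-1*, *DIO1*, *DIO2* and *SLC26A4* were under 0.5 FPKM in every library, whereas *PAX8* averaged 69.3 FPKM in TPC-1 and 58.5 FPKM in *RRM2*-OE-TPC-1, *FOXE1* 4.30 and 3.19 FPKM, and *HHEX* 2.47 and 4.61 FPKM. Of 6 epithelial markers 3 (*EPCAM*, *CDH1* and *KRT19*) were under 0.5 FPKM throughout, and the summed level of the list was 42.9 to 47.1 FPKM in TPC-1 and 88.4 to 90.8 FPKM in *RRM2*-OE-TPC-1, mostly *KRT18*. Summed fibroblast markers reached 2.80 to 3.20 and 2.79 to 2.97 FPKM, with 7 of 9 under 0.5 FPKM. Endothelial markers, 5 of 6 under 0.5 FPKM, summed to 1.10 to 1.37 FPKM in TPC-1 and 0.474 to 0.542 FPKM in *RRM2*-OE-TPC-1, and all 9 leukocyte markers were under 0.5 FPKM. Most of the endothelial difference was in *PECAM1*, with means of 0.924 and 0.0588 FPKM. *TEK* went the other way, with means of 0.261 and 0.397 FPKM, as did *VWF* (0.00577 and 0.0325) and *CLDN5* (0.00578 and 0.0240). *CDH5* was at 0.00326 and 0 FPKM and *KDR* at 0 in both, so the list did not move as a whole. The part of these marker differences in the results below was not tested, and in bulk libraries fewer cells of a type and less RNA per cell cannot be told apart.

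Each gene was tested with limma on log2(FPKM + 0.1), a scale that understates the change of low genes. A gene is said to have passed the test, and to have risen or fallen in *RRM2*-OE-TPC-1, at a Benjamini-Hochberg adjusted p of 0.05 or less over all 13621 tested genes, and to be past both thresholds when its log2 fold change was also at least 1 in size. Of the 29 tested members, 6 rose, 17 fell and 6 did not pass. Over all tested genes 34.9% rose and 32.7% fell, against 20.7% and 58.6% of these members. The members' median log2 fold change was -0.21, beside 0.011 over all tested genes. Past both thresholds were 1 member that rose (*DKK1*) and 3 that fell (*LGR5*, *WNT2B* and *AXIN2*), where 4.48% of all tested genes were past both upward and 6.97% downward. The 3 values of each group did not overlap for 8 members that were higher and 17 that were lower in *RRM2*-OE-TPC-1, beside 37.3% and 35.0% of all tested genes. *DKK1* and *FZD4* reached the minimum only through *RRM2*-OE-TPC-1, and *LGR5* and *AXIN2* only through TPC-1, so these 4 could be tested only because they were high in 1 group. Among the other 25, 4 rose and 15 fell, and *WNT2B* alone was past both thresholds. With 3 libraries against 3, an exact two-sided permutation test of a single gene cannot go below 0.1.

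**Figure D1:**
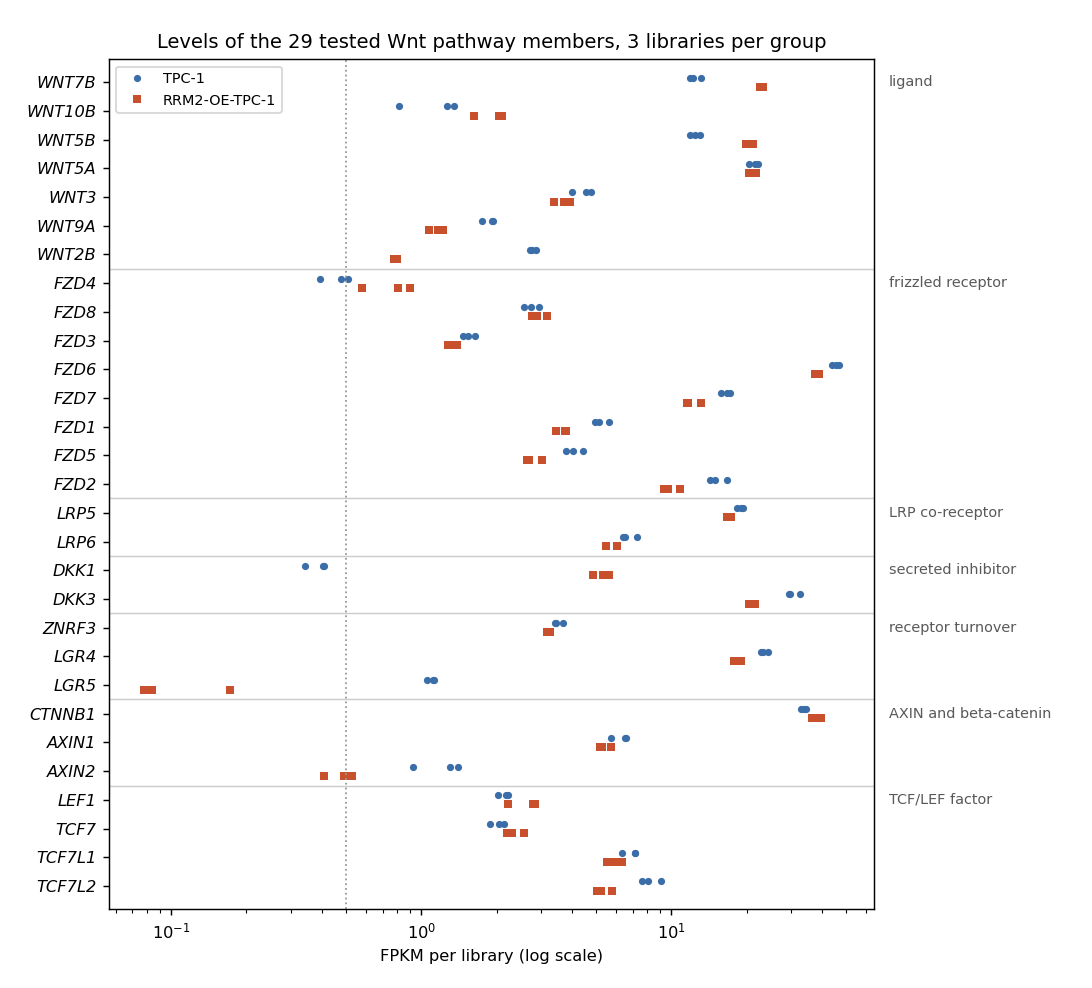
FPKM of the 29 tested members in each library (horizontal log axis), grouped by role, with TPC-1 as circles and RRM2-OE-TPC-1 as squares; the dotted line marks 0.5 FPKM. The levels run from 0.0778 FPKM (LGR5 in an RRM2-OE-TPC-1 library) to 46.7 FPKM (FZD6 in a TPC-1 library), and DKK1 and LGR5 show the widest gaps between the groups.

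The promoters of *DKK1*, the member that rose most, and *WNT2B*, the ligand that fell most, are shown as the 250 bases before the RefSeq transcription start (GRCh38.p14, plus strand), at chr10:52314031-52314280 and chr1:112466291-112466540. Capitals mark the letters TATAAA, a motif chosen after seeing the data.
DKK1: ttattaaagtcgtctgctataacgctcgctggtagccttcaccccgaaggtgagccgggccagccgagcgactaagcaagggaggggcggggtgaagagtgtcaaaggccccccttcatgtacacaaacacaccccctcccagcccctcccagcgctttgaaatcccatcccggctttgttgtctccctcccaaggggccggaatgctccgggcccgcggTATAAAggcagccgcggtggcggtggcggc
WNT2B: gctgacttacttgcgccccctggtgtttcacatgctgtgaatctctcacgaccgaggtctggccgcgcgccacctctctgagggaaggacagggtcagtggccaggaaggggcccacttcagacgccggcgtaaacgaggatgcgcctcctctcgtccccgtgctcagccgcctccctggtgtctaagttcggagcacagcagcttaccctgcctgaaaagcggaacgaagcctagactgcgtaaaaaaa
In *DKK1* this motif starts 30 bases before the transcription start, and the *WNT2B* stretch does not hold it. G and C make up 62.8% of the *DKK1* bases and 60.4% of the *WNT2B* bases. RefSeq promoters (250 bases before to 50 after the start) were matched for 34 of the 50 members, *LGR5* and *AXIN2* not among them. TATAAA, read as transcribed, was in 2 of them (*DKK1* and *FZD8*), beside 7.33% of 35116 promoters. CTTTGAT, the core letters bound by TCF/LEF factors, was searched on both strands. It was in 0 of the 34 and in 2.62% of all promoters, and its absence says only that these letters are not in these windows.

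Of 19 Wnt ligands 7 were tested, and they moved in both directions: *WNT7B*, *WNT5B* and *WNT10B* rose, *WNT3*, *WNT9A* and *WNT2B* fell, and *WNT5A* did not pass. The shares were 42.9% each way, beside 34.9% of all tested genes that rose and 32.7% that fell. *WNT7B*, a ligand best known for β-catenin signaling in lung and other epithelia, was at 13.1, 12.2 and 11.9 FPKM in TPC-1 and at 22.6, 22.6 and 23.3 FPKM in *RRM2*-OE-TPC-1. All overexpression libraries were above all TPC-1 libraries, and the means differed 1.84-fold (log2 fold change 0.87, SE 0.0456, adjusted p = 1.45e-06 from limma). *WNT5B*, a close relative of WNT5A, was at 13.0, 11.8 and 12.4 FPKM and at 21.3, 19.8 and 20.4 FPKM, again without overlap (log2 fold change 0.72, SE 0.0489, adjusted p = 5.50e-06). *WNT10B*, a canonical ligand known for its role in bone and fat formation, was low and spread widely, with 1.34, 0.814 and 1.26 FPKM in TPC-1 and 2.11, 2.04 and 1.62 FPKM in *RRM2*-OE-TPC-1. Its groups did not overlap (log2 fold change 0.73, SE 0.192, adjusted p = 0.00996, or 0.45 with a pseudocount of 1), and its coefficient of variation in TPC-1, 25.1%, was the highest of the 29 members, whose median was 5.74%.

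*WNT5A*, the prototype of β-catenin-independent ligands, was at 20.3, 21.6 and 22.1 FPKM in TPC-1 and at 21.7, 20.6 and 20.4 FPKM in *RRM2*-OE-TPC-1. These ranges overlap, and the log2 fold change of -0.029 had a 95% interval of -0.13 to 0.075 (adjusted p = 0.590). *WNT9A*, a ligand with roles in joint formation, was at 1.93, 1.92 and 1.75 FPKM and at 1.17, 1.22 and 1.07 FPKM (log2 fold change -0.65, SE 0.103, adjusted p = 6.71e-04, or -0.41 with a pseudocount of 1). *WNT3*, a canonical ligand, was at 4.76, 4.02 and 4.55 FPKM in TPC-1 and at 3.94, 3.70 and 3.39 FPKM in *RRM2*-OE-TPC-1. Its groups were close (log2 fold change -0.26, SE 0.0872, adjusted p = 0.0264), and the call was lost without TPC-1 replicate 1 (adjusted p = 0.0877) or 3 (0.0748), without *RRM2*-OE-TPC-1 replicate 2 (0.0566) or 3 (0.0861), and with no filter on low values (0.0674).

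*WNT2B* (ENSG00000134245, chromosome 1 from 112466541 to 112530165) encodes a canonical ligand of the gut and other epithelia. It was at 2.73, 2.87 and 2.76 FPKM in TPC-1 and at 0.799, 0.776 and 0.794 FPKM in *RRM2*-OE-TPC-1. The libraries of each group lay close together and far from the other group, and the mean was 3.53-fold lower in *RRM2*-OE-TPC-1 (log2 fold change -1.70, SE 0.0926, adjusted p = 1.79e-06). Leaving out each library in turn kept the log2 fold change between -1.71 and -1.68, and a pseudocount of 1 made it -1.08. Exons of *ST7L* on the opposite strand cover 21.2% of its exon bases, and whether strand was used in counting is not given in the sources used here. *ST7L* averaged 0.953 FPKM in TPC-1 and 1.06 FPKM in *RRM2*-OE-TPC-1 and did not pass the test (log2 fold change 0.14, adjusted p = 0.365).

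The order of the ligands differed between the groups. In TPC-1 *WNT5A* led, followed by *WNT5B* and *WNT7B*, whose values overlapped, then *WNT3*, *WNT2B*, *WNT9A* and *WNT10B*. In *RRM2*-OE-TPC-1 *WNT7B* led, *WNT5A* and *WNT5B* overlapped in the next place, and *WNT3*, *WNT10B*, *WNT9A* and *WNT2B* followed. The summed level of the 19 ligands was 55.4 to 57.5 FPKM in TPC-1 and 70.8 to 73.7 FPKM in *RRM2*-OE-TPC-1. Of this sum *WNT5A* held 37.8% ± 2.07 (SD, n = 3) in TPC-1 but 29.1% ± 0.370 in *RRM2*-OE-TPC-1, *WNT7B* 22.0% ± 0.965 and 31.8% ± 1.04, and *WNT2B* 4.94% ± 0.229 and 1.10% ± 0.0175.

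**Figure D2:**
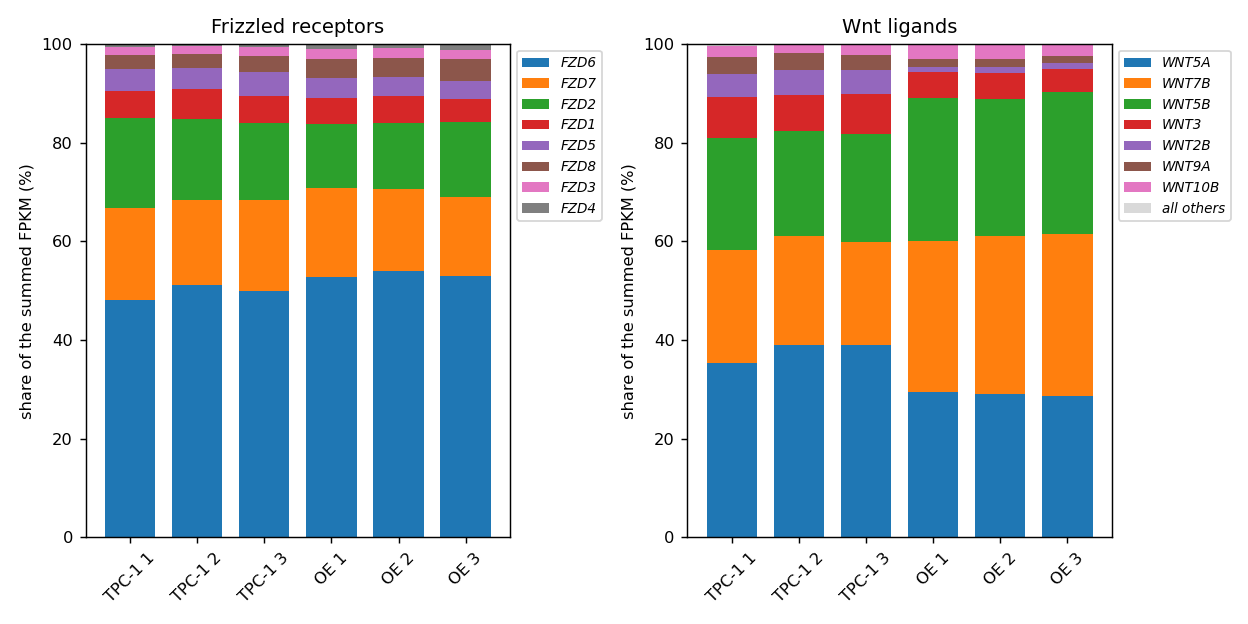
Share of the summed FPKM (vertical axis, %) of the frizzled receptors (left) and the Wnt ligands (right) held by each gene, 1 bar per library, where OE stands for RRM2-OE-TPC-1. FZD6 holds 48.0% to 51.2% of the frizzled sum in TPC-1 and 52.8% to 53.9% in RRM2-OE-TPC-1, and the WNT5A share of the ligand sum is smaller in every RRM2-OE-TPC-1 library.

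Of 10 frizzled receptors 8 were tested. *FZD1*, *FZD2*, *FZD5*, *FZD6* and *FZD7* fell (62.5%), *FZD4* rose (12.5%), and *FZD3* and *FZD8* did not pass. Over all tested genes 32.7% fell and 34.9% rose. Frizzleds are the receptors with several membrane passes that bind the ligands. The median log2 fold change of the 8 was -0.35, beside 0.011 over all tested genes. *FZD6*, a receptor linked to planar polarity and the most abundant of them, was at 43.9, 46.7 and 45.7 FPKM in TPC-1 and at 38.9, 37.6 and 38.0 FPKM in *RRM2*-OE-TPC-1. The groups did not overlap, and the mean fell by 15.9% (log2 fold change -0.25, SE 0.0353, adjusted p = 3.56e-04). *FZD2*, a receptor for WNT5A among others, fell most, from 16.7, 14.9 and 14.3 FPKM to 9.66, 9.34 and 10.8 FPKM (log2 fold change -0.61, SE 0.0752, adjusted p = 1.54e-04). *FZD7*, a receptor often studied in stem and tumor cells, was at 17.2, 15.7 and 16.7 FPKM in TPC-1 and at 13.2, 11.7 and 11.6 FPKM in *RRM2*-OE-TPC-1 (log2 fold change -0.44, adjusted p = 2.82e-04). The groups of both genes stood apart.

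*FZD1*, at a mean of 5.23 ± 0.349 FPKM (SD, n = 3) in TPC-1, was at 3.66 ± 0.190 FPKM in *RRM2*-OE-TPC-1 (log2 fold change -0.50, adjusted p = 4.09e-04). *FZD5*, which carries canonical signaling in gut epithelium, was at 4.09 ± 0.331 and 2.79 ± 0.212 FPKM (log2 fold change -0.53, adjusted p = 8.33e-04). Neither showed overlap. *FZD3*, with roles in axon guidance, was at 1.55 ± 0.0858 and 1.34 ± 0.0526 FPKM (log2 fold change -0.19, 95% interval -0.43 to 0.038, adjusted p = 0.120), and *FZD8* was at 2.76 ± 0.189 and 2.95 ± 0.209 FPKM with overlapping groups (0.092, -0.11 to 0.29, adjusted p = 0.371). *FZD3* passed with voom on recovered reads (adjusted p = 0.0281).

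*FZD4*, the receptor through which norrin acts on retinal vessels, was at 0.479, 0.395 and 0.510 FPKM in TPC-1 and at 0.806, 0.577 and 0.901 FPKM in *RRM2*-OE-TPC-1 (log2 fold change 0.60, SE 0.198, adjusted p = 0.0254, or 0.27 with a pseudocount of 1). Its overexpression libraries were all higher but spread widely, and the call was lost without TPC-1 replicate 1 (adjusted p = 0.0504) or 2 (0.0756), without *RRM2*-OE-TPC-1 replicate 1 (0.0706) or 3 (0.0897), and with no filter on low values (0.121). Exons of *PRSS23* on the opposite strand cover 18.9% of the *FZD4* exon bases, and *PRSS23* averaged 8.51 FPKM in TPC-1 and 28.5 FPKM in *RRM2*-OE-TPC-1 (log2 fold change 1.73), so the *FZD4* value is uncertain and the part of *PRSS23* in it was not tested.

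The summed frizzled level was 91.2 to 91.4 FPKM in TPC-1 and 69.7 to 73.7 FPKM in *RRM2*-OE-TPC-1. In both groups *FZD6* came first, followed by *FZD7*, *FZD2* and *FZD1*, with *FZD3* and *FZD4* last. *FZD7* and *FZD2* overlapped in TPC-1, and *FZD8* and *FZD5* overlapped in *RRM2*-OE-TPC-1. *FZD2* held 16.7% ± 1.37 (SD, n = 3) of the sum in TPC-1 but 13.9% ± 1.07 in *RRM2*-OE-TPC-1, and *FZD8* 3.02% ± 0.205 and 4.11% ± 0.269.

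Both LRP co-receptors, the single-pass partners of the frizzleds in the canonical branch, fell slightly. *LRP5* was at 18.3, 18.9 and 19.2 FPKM in TPC-1 and at 17.3, 16.7 and 16.6 FPKM in *RRM2*-OE-TPC-1 (log2 fold change -0.16, SE 0.0376, adjusted p = 0.00619). *LRP6* was at 6.41, 6.49 and 7.25 FPKM and at 6.06, 6.08 and 5.48 FPKM (log2 fold change -0.19, SE 0.0696, adjusted p = 0.0398). The groups of each did not overlap, yet the *LRP6* call was lost in each fit that left out a library except the one without TPC-1 replicate 1, with adjusted p between 0.0501 and 0.133, and with no filter on low values (0.0895).

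*DKK1* and *DKK3* were the only 2 of the 8 secreted inhibitors tested, and they moved in opposite directions. DKK1 binds LRP5 and LRP6 and blocks canonical signaling. *DKK1* (ENSG00000107984, chromosome 10 from 52314296 to 52318042) was at 0.407, 0.404 and 0.341 FPKM in TPC-1, from 15, 15 and 12 reads, and at 5.61, 5.32 and 4.84 FPKM in *RRM2*-OE-TPC-1, from 179, 201 and 170 reads. Every overexpression library was far above every TPC-1 library, and the means differed 13.7-fold (log2 fold change 3.47, SE 0.111, adjusted p = 1.48e-07). Leaving out single libraries gave log2 fold changes of 3.40 to 3.53, and the value was 2.17 with a pseudocount of 1 and 3.74 with 0.01. *PRKG1-AS1*, on the opposite strand over 9.61% of its exon bases, averaged 0.0328 FPKM. *DKK3*, a family member that does not act on LRP5 and LRP6 as DKK1 does, was far more abundant, at 32.7, 29.9 and 29.4 FPKM in TPC-1 and at 21.5, 21.0 and 20.4 FPKM in *RRM2*-OE-TPC-1. Its groups did not overlap (log2 fold change -0.54, SE 0.0473, adjusted p = 2.15e-05), and *DKK3* remained the more abundant of the pair in *RRM2*-OE-TPC-1.

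**Figure D3:**
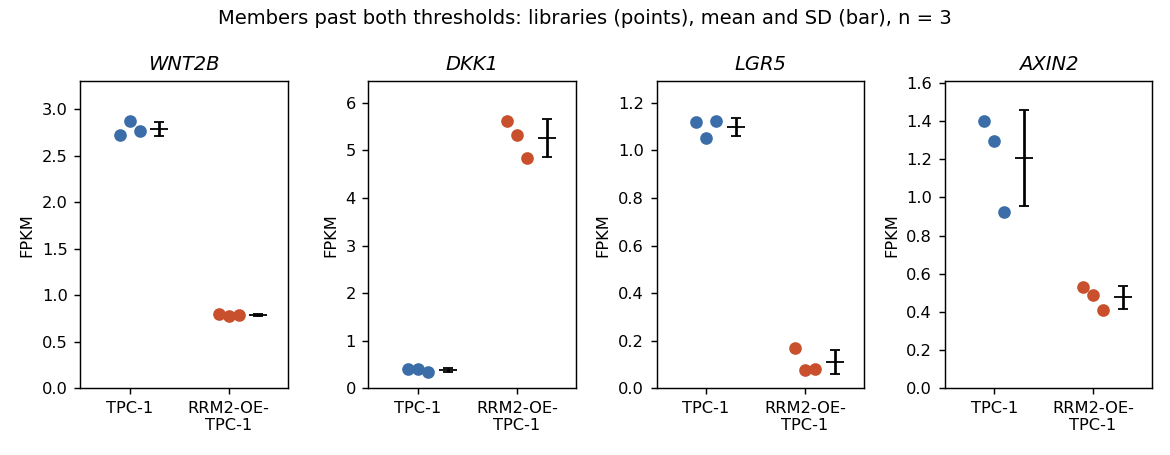
FPKM (vertical axes, each from 0) of the 4 members past both thresholds in each library, with the mean and SD of the 3 libraries of a group as the bar beside the points. DKK1 is higher in every RRM2-OE-TPC-1 library, with 4.84 to 5.61 FPKM, and WNT2B, LGR5 and AXIN2 are lower in every one.

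Of 4 genes that set receptor turnover at the cell surface, 3 were tested. RNF43 and ZNRF3 are ubiquitin ligases that remove frizzleds from the membrane. LGR4 and LGR5 are R-spondin receptors that, with R-spondin bound, hold these ligases in check. No R-spondin gene was among the tested genes. *LGR5* (ENSG00000139292, chromosome 12 from 71439770 to 71586310), also a stem cell marker and a β-catenin target in the gut, was at 1.12, 1.05 and 1.12 FPKM in TPC-1, from 98, 93 and 94 reads. In *RRM2*-OE-TPC-1 it was at 0.171, 0.0778 and 0.0837 FPKM, from 13, 7 and 7 reads. All overexpression libraries were low, replicate 1 less so, and the mean was 9.90-fold lower (log2 fold change -2.53, SE 0.221, adjusted p = 2.15e-05). The scale matters here: the log2 fold change was -0.92 with a pseudocount of 1 and -3.28 with 0.01. *LGR4* was much more abundant, at 22.7, 24.3 and 23.2 FPKM in TPC-1 and at 19.0, 17.8 and 18.3 FPKM in *RRM2*-OE-TPC-1, without overlap (log2 fold change -0.35, SE 0.0423, adjusted p = 1.46e-04). *ZNRF3* was at 3.52 ± 0.141 FPKM (SD, n = 3) and 3.21 ± 0.0466 FPKM (log2 fold change -0.13, 95% interval -0.28 to 0.024, adjusted p = 0.118), and passed when libraries were scaled to their totals (adjusted p = 0.0392).

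*CTNNB1* rose slightly while both AXIN genes fell. *CTNNB1*, which encodes β-catenin, was at 32.9, 33.8 and 34.3 FPKM in TPC-1 and at 39.5, 38.3 and 36.5 FPKM in *RRM2*-OE-TPC-1, without overlap (log2 fold change 0.18, SE 0.0394, adjusted p = 0.00431). *AXIN2* (ENSG00000168646, chromosome 17 from 65528563 to 65561647), a scaffold of the destruction complex and a widely used β-catenin target gene, was at 1.40, 1.30 and 0.925 FPKM in TPC-1 and at 0.530, 0.491 and 0.408 FPKM in *RRM2*-OE-TPC-1. TPC-1 replicate 3 was the lowest of its group but above all overexpression libraries, and the means differed 2.53-fold (log2 fold change -1.17, SE 0.186, adjusted p = 7.00e-04). The log2 fold change ran from -1.33 to -1.06 with each library left out and was -0.57 with a pseudocount of 1. *AC004805.1*, which overlaps its exons on the same strand, was listed at 0. *AXIN1*, the main scaffold, was at 6.58, 5.71 and 6.50 FPKM in TPC-1 and at 5.76, 5.19 and 5.28 FPKM in *RRM2*-OE-TPC-1. These ranges overlap (log2 fold change -0.21, SE 0.0733, adjusted p = 0.0353), and the call was lost without TPC-1 replicate 1 or 3 or *RRM2*-OE-TPC-1 replicate 2 or 3, with adjusted p between 0.0933 and 0.109, and with no filter on low values (0.0828).

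Of the 4 TCF/LEF factors, which bring β-catenin to DNA, 2 fell and 2 did not pass, where 32.7% of all tested genes fell and 34.9% rose. *TCF7L2*, the main factor of this family in gut epithelium, was at 8.05, 9.08 and 7.66 FPKM in TPC-1 and at 5.05, 5.23 and 5.79 FPKM in *RRM2*-OE-TPC-1, without overlap (log2 fold change -0.61, SE 0.0794, adjusted p = 2.11e-04). *TCF7L1*, mostly a repressor, was at 6.33, 7.14 and 7.15 FPKM and at 5.53, 6.36 and 5.94 FPKM. Its ranges overlap (log2 fold change -0.21, SE 0.0735, adjusted p = 0.0362), and the call was lost without TPC-1 replicate 2 or 3 or *RRM2*-OE-TPC-1 replicate 1 or 3, with adjusted p between 0.0765 and 0.110, and with no filter on low values (0.0877).

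*LEF1*, usually an activator, was at 2.22, 2.19 and 2.02 FPKM in TPC-1 and at 2.85, 2.79 and 2.22 FPKM in *RRM2*-OE-TPC-1. The groups nearly touch (log2 fold change 0.27, 95% interval 0.015 to 0.53 before adjustment, adjusted p = 0.0586), and *LEF1* passed without *RRM2*-OE-TPC-1 replicate 3 (adjusted p = 0.00985), with voom (0.0246) and among protein-coding genes only (0.0335). *TCF7* was at 2.02 ± 0.132 and 2.36 ± 0.193 FPKM (SD, n = 3; log2 fold change 0.21, adjusted p = 0.0793) and passed with voom (0.0167). Exons of *SKP1* on the opposite strand cover 2.09% of the *TCF7* exon bases, and *SKP1* averaged 9.31 FPKM in TPC-1 and 12.3 FPKM in *RRM2*-OE-TPC-1. Opposite-strand exons also cover 3.40% of the exon bases of *FZD6*, 3.96% of *LGR5*, 4.45% of *TCF7L2* and 5.20% of *LEF1*, from genes that averaged 0.0190 to 0.689 FPKM.

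**Figure D4:**
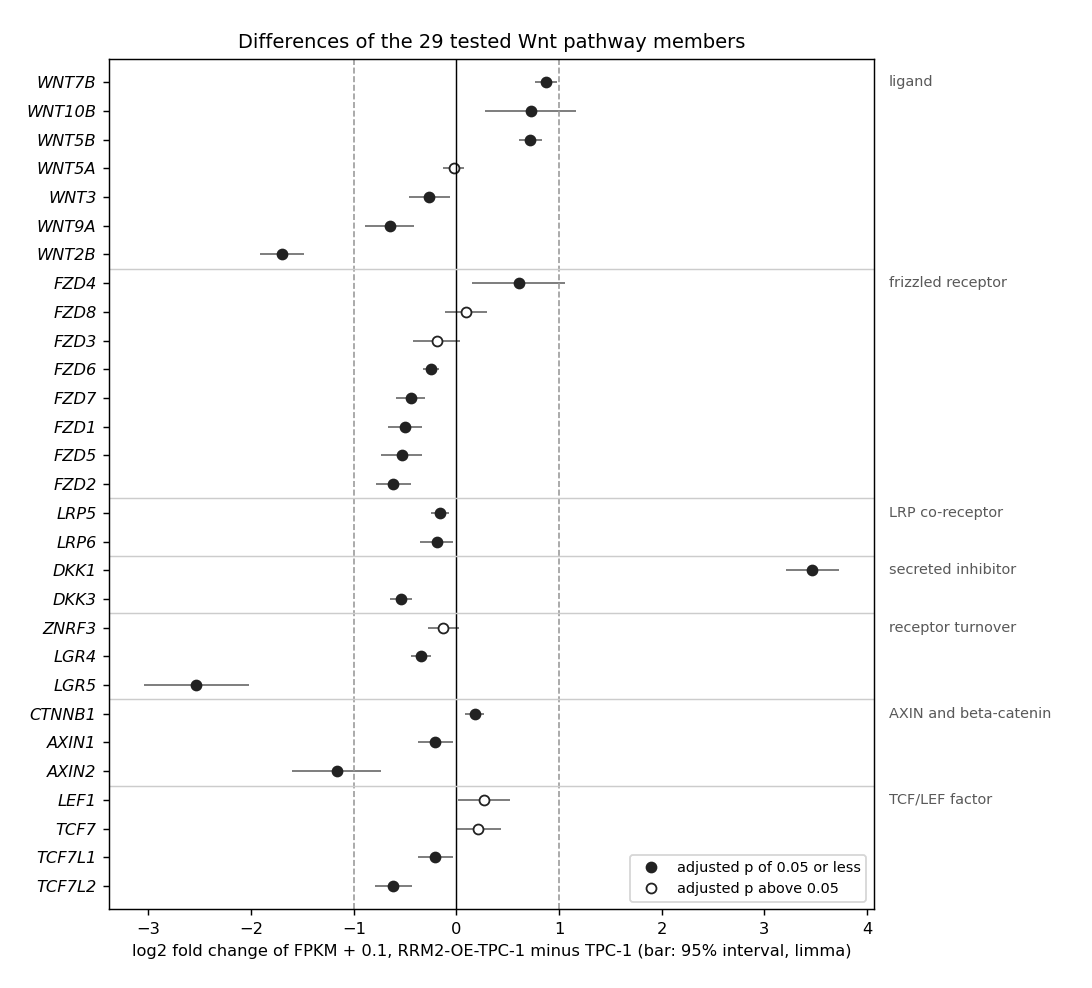
Log2 fold change of each tested member (horizontal axis, RRM2-OE-TPC-1 minus TPC-1 on log2(FPKM + 0.1)) with its 95% interval from limma; filled points passed the test, and dashed lines mark -1 and 1. Only DKK1 (3.47) lies beyond 1, LGR5 (-2.53), WNT2B (-1.70) and AXIN2 (-1.17) lie beyond -1, and 20 of the 29 points are below 0.

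The 21 members under the minimum had few or no reads in both groups. No read was found in any library for 11 of them, which are *WNT1*, *WNT2*, *WNT3A*, *WNT6*, *WNT7A*, *WNT8A*, *FZD9*, *FZD10*, *SFRP1*, *SFRP2* and *DKK4*. A count of 0 over the 6 libraries allows up to 3 reads, which is 0.0065 to 0.0346 FPKM depending on gene length, and covers counting error only. *WNT9B*, *WNT10A*, *WNT11*, *WNT16*, *SFRP5*, *DKK2* and *RNF43* had 1 to 4 reads over all libraries. *SFRP4*, a secreted decoy that resembles the ligand-binding part of frizzleds, had 5, 7 and 8 reads in TPC-1 and 1, 1 and 6 reads in *RRM2*-OE-TPC-1. Its sums of 20 reads (95% Poisson interval 12.2 to 30.9) and 8 reads (3.45 to 15.8) have intervals that overlap. *WNT4* had 2 reads (0.242 to 7.22) in TPC-1 but 12 reads (6.20 to 21.0) in *RRM2*-OE-TPC-1, and *WNT8B* 8 (3.45 to 15.8) and 4 (1.09 to 10.2). Their intervals overlap as well, but overlap of intervals does not compare the groups, and none of the 3 was tested.

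Some ligand genes lie side by side, and in 3 of 4 such pairs within 100000 bases 1 neighbor was tested and the other was under the minimum. *WNT3* and *WNT9B* are 46 bases apart on chromosome 17 in opposite orientation, with means of 4.44 and 0.00598 FPKM in TPC-1. *WNT10B* and *WNT1*, 6689 bases apart on chromosome 12, were at 1.14 FPKM and listed at 0. *WNT9A*, at 1.87 FPKM in TPC-1, and *WNT3A*, listed at 0, are 59152 bases apart on chromosome 1. In the other pair, *WNT6* and *WNT10A*, 6129 bases apart on chromosome 2, both were under the minimum.

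The rest of the pathway was counted in 7 lists of 138 symbols in all, of which 136 were in the table and 100 were tested. Of these 100, 27 rose and 46 fell, beside 34.9% and 32.7% of all tested genes, with a median log2 fold change of -0.097 beside 0.011. Past both thresholds 4 rose and 7 fell, which is close to the 4.48% and 6.97% of all tested genes. In Wnt secretion, 3 of 5 genes were tested and 1 fell: *WLS*, the carrier that takes Wnt proteins to the cell surface, went from 7.59 ± 0.124 to 6.47 ± 0.681 FPKM (SD, n = 3; log2 fold change -0.23, adjusted p = 0.0259). Of 14 other secreted modulators 3 were tested, 1 rose and 2 fell. *KREMEN2*, which rose, was named after its values were seen. Its groups overlapped, at 0.632 ± 0.428 and 1.19 ± 0.238 FPKM (log2 fold change 0.94, adjusted p = 0.0476 from limma). Exons of *PKMYT1* on the opposite strand cover 13.8% of its exon bases. *IGFBP4*, a growth factor binding protein that also binds frizzled and LRP6, was the abundant one and went from 378.0 ± 11.9 to 153.8 ± 6.08 FPKM (log2 fold change -1.30, adjusted p = 1.64e-07). Of 8 other receptors 5 were tested, 1 rose and 4 fell, with the largest fall in *ROR2*, a receptor for WNT5A, from 1.31 ± 0.158 to 0.834 ± 0.164 FPKM (log2 fold change -0.60, adjusted p = 0.0112).

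Of the dishevelled and destruction complex list, 22 of 26 genes were tested, and 3 rose (13.6%), 10 fell (45.5%) and 9 did not pass (median log2 fold change -0.18), where 34.9% of all tested genes rose and 32.7% fell. *FRAT1*, which inhibits GSK3, fell from 1.07 ± 0.124 to 0.275 ± 0.105 FPKM (log2 fold change -1.67, adjusted p = 4.24e-04), and reached the minimum only through TPC-1. Of the nuclear β-catenin cofactors, 21 were tested, and 1 rose (4.76%), 14 fell (66.7%) and 6 did not pass (median -0.35). The list was not split into activators and repressors, so the count gives no direction for β-catenin activity. *TLE2*, a co-repressor that binds TCF factors, fell from 9.66 ± 0.598 to 2.94 ± 0.152 FPKM (log2 fold change -1.68, adjusted p = 4.12e-07). In the planar polarity and calcium branch, 8 of 24 tested genes rose and 8 fell (33.3% each, near the shares of all tested genes; median 0.0022), and past both thresholds were only the cadherins *CELSR2*, from 14.3 ± 0.420 to 6.42 ± 0.295 FPKM (-1.14, adjusted p = 6.31e-07), and *CELSR3*, from 1.07 ± 0.0491 to 0.398 ± 0.0640 FPKM (-1.23, adjusted p = 1.90e-04), which reached the minimum only through TPC-1.

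Among often-used β-catenin target genes, 22 of 36 listed were tested, and 13 rose (59.1%), 7 fell (31.8%) and 2 did not pass (median log2 fold change 0.30), beside 34.9% and 32.7% of all tested genes. Past both thresholds were 18.2% upward and 9.09% downward, beside 4.48% and 6.97%. The 4 that rose were *PLAUR*, the urokinase receptor, from 4.54 ± 0.125 to 13.0 ± 0.735 FPKM (1.50, adjusted p = 2.88e-07), *EDN1*, which encodes endothelin 1, from 0.762 ± 0.255 to 2.05 ± 0.340 FPKM (1.35, adjusted p = 0.00102, at the minimum in all libraries of *RRM2*-OE-TPC-1 only), *CCND1*, which encodes cyclin D1, from 74.6 ± 2.93 to 183.1 ± 3.62 FPKM (1.30 with *LTO1* on the opposite strand over 10.3% of its exon bases, adjusted p = 9.87e-08), and *PTTG1*, which encodes securin and was named after its values were seen, from 12.8 ± 0.630 to 27.6 ± 1.82 FPKM (1.10, adjusted p = 1.54e-06). *VEGFA*, a growth factor for blood vessels, fell from 35.0 ± 0.741 to 7.22 ± 0.142 FPKM (-2.26, adjusted p = 9.81e-09), and *ID2*, an inhibitor of helix-loop-helix factors, from 36.0 ± 2.39 to 14.2 ± 1.22 FPKM (-1.33, adjusted p = 1.62e-06). Also among the 7 that fell was *MYC*, named after its values were seen, from 124.9 ± 2.54 to 72.5 ± 2.67 FPKM (-0.78, adjusted p = 8.92e-07). *AXIN2* and *LGR5*, described above as β-catenin targets, are not in this list. Both fell, with log2 fold changes of -1.17 and -2.53, and both reached the minimum only through TPC-1.

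**Figure D5:**
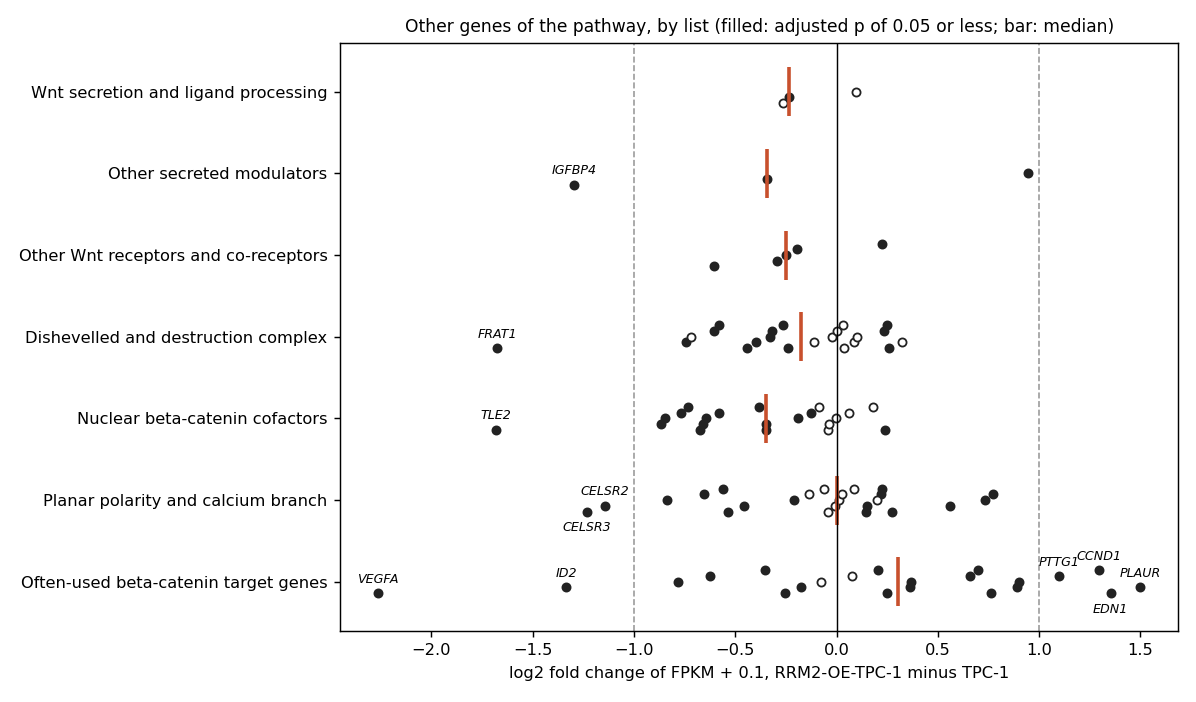
Log2 fold change (horizontal axis) of the tested genes of the 7 other pathway lists, 1 point per gene, filled where the gene passed the test, with the median of each list as a vertical bar and dashed lines at -1 and 1. The medians run from -0.35 in the other secreted modulators and the nuclear cofactors to 0.30 in the β-catenin target genes.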

How the data were processed

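Directional, paired-end RNA libraries of TPC-1 (wild strain, 3) and *RRM2*-OE-TPC-1 (3), described as biological triplicates, were sequenced. The methods describe poly(A) selection, whereas the labels describe ribosomal RNA removal and RNase R digestion. The authors cleaned reads with fastp, aligned them with HISAT2 2.0.5, counted them with featureCounts 1.5.0 (GRCh38.p14 in the submitters' processing notes) and deposited FPKM values, that is counts divided by gene length and depth. They tested with DESeq2 1.20.0. The strand setting of the counting is not given in the sources used here, and all 58735 identifiers and positions were those of GENCODE 29. Every value was a whole multiple of what 1 read is worth (tolerance 0.01 reads), so reads per gene were recovered.

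Genes with at least 0.5 FPKM and 10 reads in at least 3 libraries were tested on log2(FPKM + 0.1) with limma 3.58.1 (lmFit, eBayes with trend) in R 4.3.3, without covariates. Samples were grouped by title. Summaries and plots used matplotlib 3.10.9, scipy 1.17.1, pandas 2.3.3 and numpy 2.4.6 under Python 3.11.15, and the fit was tested on simulated data. Alternatives were pseudocounts of 1 and 0.01, other filters, library totals, median-of-ratios factors, voom on recovered reads, a replicate block, protein-coding genes only, a test of a change above 1 and each library left out.

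Named are all members, *RRM2*, and of each other list up to 3 genes in each direction past both thresholds, or else the gene with the largest change that passed. Other genes were named after their values were seen. Members and lists were chosen with earlier results of these data known. Of the listed symbols, 2 were not matched, *TLE5* and *TROY*, whose genes are also listed as *AES* and *TNFRSF19*. Part of the thyroid marker list is not reported here.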

Additional observations from a re-analysis of the deposited data

How the results depend on the processing

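No direction reversed. Of 435 values of single members under the alternatives, 401 kept direction and side of the threshold, 27 lost the call and 7 gained it, and 20 of the 29 members kept both under every alternative run. These values do not include the test of a change above 1. With a pseudocount of 1, 1 member in place of 3 fell past both thresholds (*WNT2B*, at -1.08), and over all genes 303 rose and 413 fell past both, in place of 610 and 950, because that pseudocount shrinks the change of low genes. When a change above 1 was itself tested, 1 member rose as before and 2 in place of 3 fell. Of the other pathway genes 2 in place of 4 rose and 4 in place of 7 fell, and over all genes 235 and 383. Without any filter 30958 genes entered the test and 920 and 1361 were past both. Leaving out each library in turn gave 5 to 6 members that rose and 13 to 15 that fell, with 1 and 3 past both thresholds each time. It left a group with 2 libraries, and the tested genes stayed those chosen with all libraries. Under a filter applied anew, *DKK1* and *LGR5* would drop out without any 1 library of the group where they were high. The constant 1 and 3 therefore partly follow from the fixed filter. Scaling to library totals moved the median of all genes from 0.011 to -0.045 and the genes that passed from 4758 higher and 4449 lower to 4259 and 4977. The depth behind the deposited values was 1.03 to 1.05 times the reads on genes in TPC-1 and 0.997 to 1.01 times in *RRM2*-OE-TPC-1. With library totals the log2 fold change of *CTNNB1* went from 0.18 to 0.12 and that of *LRP5* from -0.16 to -0.21. Median-of-ratios factors left them at 0.18 and -0.16.

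Same-numbered libraries did not deviate together (correlations of -0.011, -0.0060 and -0.055). No effect shared by same-numbered libraries was seen, which cannot exclude that they were handled in pairs. With the replicate number as a block 7 members rose and 16 fell, and 1 and 3 were past both thresholds, *LEF1* gaining a call (adjusted p = 0.0451) and *LRP6* losing one (0.0838). No library correlated best with its own number.

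Depth limits the low members: *DKK1* rests on 12 to 15 reads per TPC-1 library and *LGR5* on 7 to 13 per *RRM2*-OE-TPC-1 library. The causes of the other differences between settings were not tested.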
